A study of Mus musculus with 19 samples.

Results

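The TAM receptors Axl, Mertk and Tyro3 and their ligands Gas6 and Pros1 were followed through the H3K27ac ChIP-seq lists and the RNA tables of a study of PRMT1 in microglia. The 5 genes were chosen by name, and every listed peak whose nearest gene was one of them was taken. This gave 5 of the 14035 listed peaks, for 2 of the 5 genes (3 peaks at Axl and 2 at Gas6), while Mertk, Tyro3 and Pros1 had none. Of all 24733 genes with an RNA row, 19.0% had a listed peak in any comparison.

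TAM receptors are receptor tyrosine kinases of phagocytes. Gas6 and protein S, the product of Pros1, are vitamin K-dependent proteins that bind phosphatidylserine on dying cells or membrane debris with one end and a TAM receptor with the other, so that the receptor triggers engulfment and dampens inflammatory signalling. Mertk is known as the TAM receptor of resting tissue macrophages and microglia, Axl as the one that inflammatory signals induce, and Tyro3 as mainly neuronal in brain. H3K27ac marks active promoters and enhancers.

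From 10 H3K27ac and 9 input libraries (19 samples), values for 8 H3K27ac libraries were used, in 4 groups of 2. The WT mice, PRMT1fl/fl without Cre, were either on normal diet and labelled 11 weeks (WT basal) or on 0.2% cuprizone for 5 weeks, and the latter were sorted into WT CPZ CD11c-low and WT CPZ CD11c-high microglia. The KO mice, PRMT1fl/fl with cx3r1cre-ert2, a tamoxifen-inducible Cre driven from the Cx3cr1 locus in microglia and other macrophages, gave KO CPZ CD11c-low cells after the same 5 weeks of cuprizone. According to the methods all mice were C57BL/6 and had received tamoxifen, so the WT groups carried the floxed allele and the drug but not the driver. Cuprizone kills oligodendrocytes and strips myelin, and CD11c is the integrin encoded by Itgax. H3K27ac of KO basal cells was not analysed here.

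Sequencing depth was uneven, the first WT basal library having a relative depth of 0.609 and the second of 0.922 where the CD11c-low libraries had 1.27 and 1.19 (from the value of 1 read). Gene-wide Prmt1 RNA was lower in KO than in WT basal cells by a log2 fold change of -0.32 (adjusted p = 1, 2 against 3 libraries) and lower in KO than in WT CD11c-low cells by -0.54 (1 library each). These read totals include exons outside any excised part. Itgax RNA was higher in the CD11c-high than in the CD11c-low library by 1.48. Of the 8 microglia markers 7 had an RNA row, and their summed mean level lay between 9608 and 11901 normalized reads over the 6 RNA comparisons, against 378 to 947 for 6 endothelial, 419 to 819 for 5 astrocyte, 592 to 1187 for 5 oligodendrocyte, 247 to 605 for 8 monocyte and border macrophage and 7.7 to 21.2 for 4 neuronal markers. In these bulk samples, fewer cells of a type and less RNA per cell cannot be told apart.

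Sequences at 3 of the listed Axl and Gas6 regions are shown because acetylation was measured over them. Both genes lie on the minus strand, and all 3 sequences read along the gene, 5′ to 3′, in GRCm38.p6 (RefSeq). The 2 promoters, chr7:25788684-25788983 and chr8:13494486-13494785, run from 250 bases before to 50 after the start and lie inside listed peaks. The other is the central 300 bases of the smaller Axl peak (chr7:25776995-25777294). Capitals mark matches to 8 motifs searched on both strands.
Axl promoter: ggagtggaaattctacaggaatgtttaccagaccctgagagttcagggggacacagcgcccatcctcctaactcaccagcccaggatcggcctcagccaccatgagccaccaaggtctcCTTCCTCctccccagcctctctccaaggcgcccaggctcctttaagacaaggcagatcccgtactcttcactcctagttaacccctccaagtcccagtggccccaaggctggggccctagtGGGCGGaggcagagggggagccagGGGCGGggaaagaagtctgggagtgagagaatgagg
Gas6 promoter: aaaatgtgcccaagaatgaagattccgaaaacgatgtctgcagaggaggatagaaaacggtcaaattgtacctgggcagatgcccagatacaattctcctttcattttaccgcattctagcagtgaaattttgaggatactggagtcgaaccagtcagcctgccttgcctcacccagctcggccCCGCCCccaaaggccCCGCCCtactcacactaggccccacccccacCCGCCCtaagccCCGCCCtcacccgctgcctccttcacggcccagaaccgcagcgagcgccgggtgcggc
Axl intron 6 peak centre: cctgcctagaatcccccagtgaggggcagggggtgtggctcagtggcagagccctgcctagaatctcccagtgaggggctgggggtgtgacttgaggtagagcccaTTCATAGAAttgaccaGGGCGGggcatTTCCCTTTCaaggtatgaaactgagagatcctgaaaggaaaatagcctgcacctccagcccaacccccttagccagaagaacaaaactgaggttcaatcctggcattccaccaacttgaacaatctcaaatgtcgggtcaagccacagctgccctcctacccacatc

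The motifs were GAGGAAG (PU.1 core), GAAANNGAA (interferon response core), TTCNNNGAA (STAT core), TGANTCA (AP-1), AGGTCA (nuclear receptor core site), TTGCNNAA (C/EBP), CACGTG (E-box of the MiT/TFE factors) and GGGCGG (GC box). The Axl promoter held 1 match to GAGGAAG, a word in 13.6% of 32851 mouse promoters of the same length, and 2 to GGGCGG, present in 35.7% of them. The Gas6 promoter held 4 matches to GGGCGG and none to the other words, with 17 CpG against 6 in the Axl promoter. The promoters of the 3 members without a listed peak also held GGGCGG, with 4 matches at Mertk, 6 at Tyro3 and 5 at Pros1. The Axl intron 6 centre held 1 match each to GAAANNGAA, TTCNNNGAA and GGGCGG, which were present in 11.0%, 9.11% and 8.55% of the centres of 12333 listed peaks. No 2 matches of different motifs overlapped, and these are word matches in fixed windows only.

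Axl, a receptor that binds Gas6, was the gene of the 5 with listed peaks in the comparisons of cuprizone with basal WT cells, and all 3 were higher after cuprizone. In CD11c-low cells a peak of 9309 bases, chr7:25780036-25789345 in mm10, reached from 612 bases upstream of the start over exons 1 to 4 of the 19 exons of Axl. It held 184 and 163 normalized tags in the 2 WT basal libraries and 1462 and 1214 in the 2 CD11c-low libraries. The groups did not overlap, the lower cuprizone library being 6.60-fold above the higher basal one. The group means, 173 ± 15.1 and 1338 ± 175 (SD, n = 2), differed by a log2 ratio of 2.95 ± 0.16 (SE), with an adjusted p of 3.53e-39 in the deposited test over 29640 peaks. Behind these values stood 112 and 150 recovered reads in WT basal and 1863 and 1450 in CD11c-low cells.

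A second Axl peak in the same comparison, chr7:25776110-25778178, lay wholly in intron 6, 10.6 to 12.6 kb inside the gene. It held 171 and 116 normalized tags in WT basal and 332 and 289 in CD11c-low libraries. All 4 values kept their group order, but the gap was small, the lower cuprizone library being 1.69-fold above the higher basal one. The means were 143 ± 38.8 and 310 ± 30.4 (SD, n = 2) and the log2 ratio 1.11 ± 0.30, with a deposited adjusted p of 0.000232. Without the second WT basal library the log2 ratio was 0.86, below the limit of 1 used for the lists, and it was -0.40 with TMM factors over the listed peaks, which had all been called as changed and whose ratios these factors shift by about -1.54.

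The 2 Axl regions differed in their basal level. Per kb, the intron 6 peak held a mean of 69.4 normalized tags in WT basal cells and the broad peak 18.6, whereas in CD11c-low cells the levels were 150 and 144. With 4334 of 29640 tested peaks (14.6%) listed as higher in this comparison, both Axl peaks lay among a frequent direction. By log2 ratio the broad peak ranked 625 and the intron 6 peak 3832 of the 4334, and by length the broad peak ranked 48, the median length being 1618 bases.

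In CD11c-high cells a single Axl peak of 13830 bases was listed, chr7:25775877-25789707, which covered both regions above, the gap between them and exons 1 to 6. Its values were 372 and 297 normalized tags in WT basal and 2327 and 2164 in CD11c-high libraries. The groups were again apart, by 5.81-fold between the nearest libraries. The means of 335 ± 52.9 and 2245 ± 115 (SD, n = 2) gave a log2 ratio of 2.75 ± 0.17, with a deposited adjusted p of 7.24e-42 over 30377 peaks, of which 18.3% were listed as higher. By length this peak ranked 13 and by mean level in CD11c-high cells 26 among the 5571 peaks listed as higher.

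The CD11c-low and CD11c-high tables were scaled separately, share the WT basal libraries and cut the Axl locus differently, so their values stand side by side only. Summed over both Axl peaks of the CD11c-low table, 11377 bases, the ratio of cuprizone to basal was 5.20-fold, and over the 13830 bases of the CD11c-high table it was 6.71-fold. In the direct comparison of CD11c-high with CD11c-low cells, 449 of 23471 peaks (1.91%) were listed in either direction, and none was assigned to a TAM gene. A region that is not listed missed the limit on p or on fold change, or was not among the tested peaks, and was not thereby shown to be equal.

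**Figure D1:**
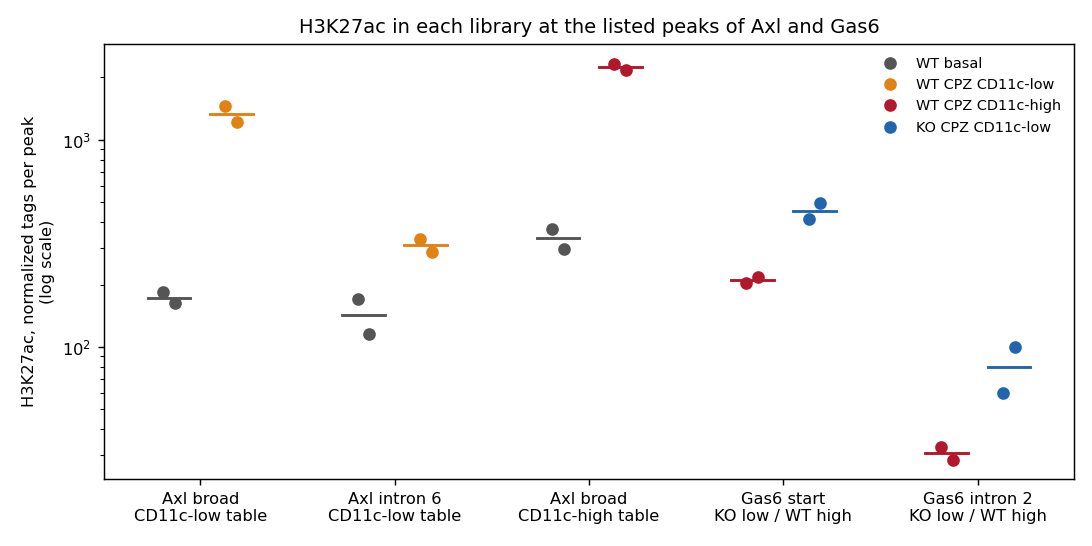
H3K27ac in normalized tags per peak (log scale) in each library at the 5 listed peaks, with dots for the 2 libraries of a group and a line for their mean. Colours give the groups, and values compare within a peak only. The libraries of the 2 groups do not overlap at any of the 5 peaks. All 5 had already been listed as changed, which favours such a separation, so it adds no support. The gap is widest at the broad Axl peak of CD11c-low cells (184 and 163 against 1462 and 1214).

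**Figure D2:**
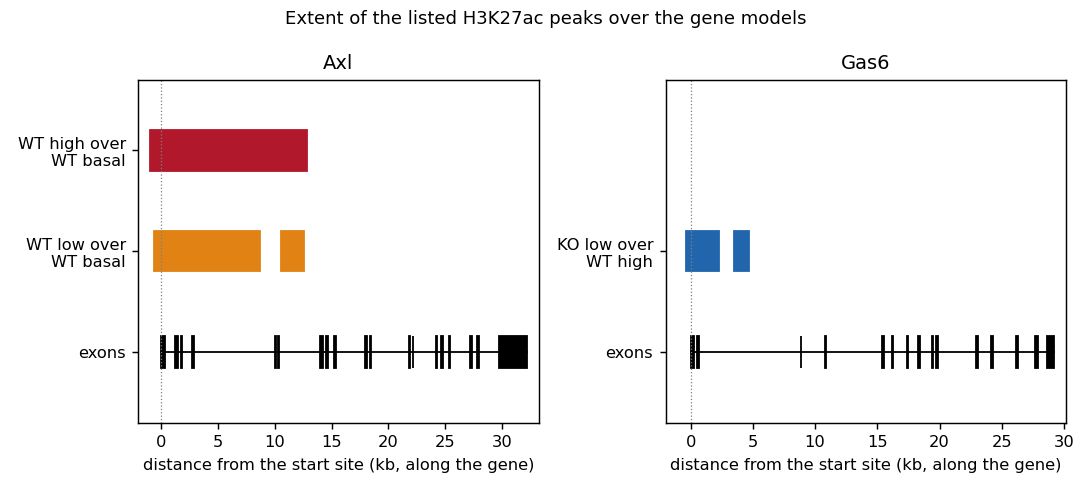
Extent of the listed peaks (coloured bars) over the exons (black) of Axl and Gas6, by distance from the start site in kb along the gene. The Axl peak of CD11c-high cells spans both Axl peaks of CD11c-low cells and the gap between them, and the larger Gas6 peak covers the start.

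Gas6, the ligand of all 3 receptors, was the other gene with listed peaks, and both were higher in KO CPZ CD11c-low than in WT CPZ CD11c-high cells. The larger one, chr8:13492270-13494874, ran from 339 bases upstream of the start over exons 1 and 2 of the 15 exons of Gas6. It held 204 and 218 normalized tags in the WT and 413 and 493 in the KO libraries. The nearest libraries of the 2 groups differed by 1.90-fold. The means, 211 ± 9.95 and 453 ± 56.6 (SD, n = 2), differed by a log2 ratio of 1.11 ± 0.14, with a deposited adjusted p of 4.19e-07 over 26568 peaks.

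The smaller Gas6 peak, chr8:13489849-13491033, lay in intron 2, 3.5 to 4.69 kb inside the gene, and per the file its region had been called in the KO cells and not in the WT CD11c-high cells. Its values were 33.1 and 28.6 normalized tags in the WT and 60.3 and 100 in the KO libraries, from 31, 31, 56 and 105 recovered reads. The 2 KO libraries differed more from each other than the 2 WT libraries did. The log2 ratio was 1.38 ± 0.38, with a deposited adjusted p of 0.0241. Without the second KO library the log2 ratio was 0.97 for the larger and 0.97 for the smaller peak, both under the limit of 1. TMM factors over the listed peaks, all called as changed, shift the ratios of this comparison by about -0.43 and gave 0.68 and 0.94.

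This comparison changes genotype and CD11c gate together, and the 2 cannot be told apart in it. Of 26568 tested peaks 526 (1.98%) were listed as higher, and the Gas6 peaks ranked 445 and 299 of these by log2 ratio. In the comparison at the same gate, KO against WT CPZ CD11c-low, 271 of 25609 peaks (1.06%) were listed in either direction and none belonged to a TAM gene. Itgax RNA was lower in the KO CD11c-low than in the WT CD11c-high library by -2.40. In the KO library of this pair, 2 of the 4 measured border macrophage and monocyte markers (8 listed) were more than 1 higher, Mrc1 (1.33) and F13a1 (1.25). Also more than 1 higher were 2 of the 4 measured endothelial markers (6 listed), Pecam1 (1.43) and Cdh5 (1.51). No measured marker of these lists was more than 1 lower. Of all 9833 measured genes, 408 were more than 1 higher and 266 more than 1 lower. With 1 library per group these values carry no spread. The mean levels of F13a1 (23.0) and Cdh5 (23.4) lay just above the minimum for a measured gene. The part of the gate or of border macrophages, monocytes or endothelial cells in the Gas6 difference was not tested.

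**Figure D3:**
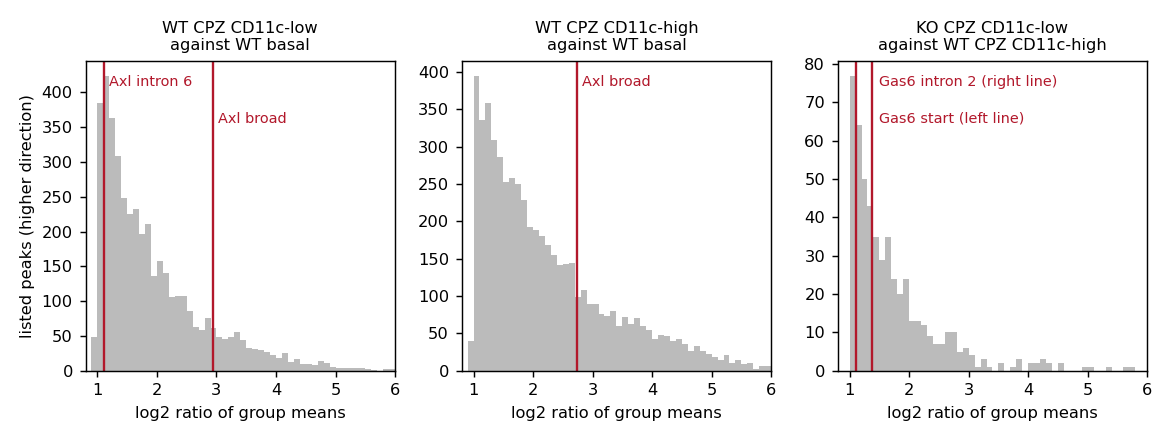
Histograms of the log2 ratio of group means over all peaks listed as higher in 3 comparisons, with red lines for the Axl and Gas6 peaks. The broad Axl peaks (2.95 and 2.75) lie to the right of the median ratios of 1.67 and 1.94, and the others (1.11, 1.38 and 1.11) to the left of the medians of 1.67 and 1.48; ratios just under 1 occur because the lists were cut on the fitted fold change, and the axis ends at 6.

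The receptors Mertk and Tyro3 and the ligand gene Pros1 had no listed peak in any of the 5 comparisons, as was the case for 81.0% of all genes. No listed peak of any gene had its centre within 200 kb of the Mertk or the Pros1 start, the nearest being 254 kb and 3295 kb away. Near Tyro3 the Itpka promoter, 58.0 kb upstream, was listed as higher in both gates over WT basal, with log2 ratios of 1.38 and 1.72. Peaks assigned to other genes within 200 kb of the Gas6 start had 8 entries over the lists. Of these 4 were higher after cuprizone, at Rasa3 and 1700029H14Rik with log2 ratios of 1.26 to 2.08, and 4 were lower. The nearest was an intergenic region 36.1 kb upstream that was lower in cuprizone cells. It held 103 and 52 normalized tags in WT basal and 32.9 and 40.2 in CD11c-low libraries, and 101 and 50.6 against 16.9 and 20.8 in the CD11c-high table. Its log2 ratios were -1.09 (deposited adjusted p = 0.0457) and -2.01 (0.00019), and all cuprizone libraries lay below both basal ones.

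RNA was tabulated for the 5 genes in 6 comparisons, with 3 WT basal, 2 KO basal and 1 library of each cuprizone group. These RNA libraries are not among the samples described above. The log2 fold changes and adjusted p values below are those in the authors' deposited tables, and with 1 cuprizone library an adjusted p rests on the spread of the basal libraries alone. A gene counted as measured at a mean level of at least 20 normalized reads, which 4 of the 5 genes passed in every comparison. Tyro3 did not, with mean levels of 2.97 to 8.18 normalized reads.

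Axl RNA followed the direction of its acetylation. It was higher than in WT basal cells by a log2 fold change of 3.01 in the CD11c-low library (adjusted p = 2.79e-115) and of 4.04 in the CD11c-high library (adjusted p = 3.56e-186). These values ranked 108 of 10406 and 71 of 9974 measured genes, and 14.1% and 14.7% of the measured genes had a higher level with an adjusted p under 0.05. The CD11c-high library exceeded the CD11c-low one by 1.05, a difference past 1 that 1.34% of genes showed in that direction. In the KO CD11c-low library Axl differed from WT CD11c-low by -0.06 and from WT CD11c-high by -1.12, where 2.71% of genes lay below -1. Between KO and WT basal cells the log2 fold change was 0.00 (adjusted p = 1). The comparisons between cuprizone libraries, 1 against 1, have no replicate check.

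The ligand Gas6 was higher in RNA in both cuprizone libraries, by a log2 fold change of 0.41 (adjusted p = 0.0326) for the CD11c-low and 0.59 (adjusted p = 0.00199) for the CD11c-high library. Its RNA differed by 0.07 between the KO CD11c-low and the WT CD11c-high library, the comparison in which its 2 peaks were listed, and by 0.27 between KO and WT CD11c-low. Marker genes of further cell types also differed. Against WT basal, the CD11c-low library had 4 of the 5 measured endothelial markers (Flt1, Cldn5, Kdr and Cdh5) higher at an adjusted p under 0.05. Cldn5 was higher by 2.56, and Pecam1 was lower (-1.38). At that threshold 3 of the 4 measured astrocyte markers were higher too. Of all measured genes, 14.1% were higher and 17.4% lower in this comparison. The oligodendrocyte markers Mobp (1.17) and Cnp (0.42) were also higher there, and the monocyte and border macrophage markers Ccr2 (-0.84) and Mrc1 (-0.59) lower. The CD11c-high library had 1 endothelial marker (Flt1) higher and none of the other lists of non-microglial cells, while Pecam1 (-3.02), the astrocyte marker Slc1a3 (-0.58) and the border macrophage markers Mrc1 (-1.89), F13a1 (-2.02) and Cd163 (-2.15) were lower. Of all measured genes, 14.7% were higher in the CD11c-high library at that threshold, and the share that was lower was not computed. The part of such cells in the Gas6 values was not tested.

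Mertk and Pros1 did not share this direction in CD11c-low cells. Mertk, the receptor with the highest level in basal cells, was lower in the CD11c-low library by -0.51 (adjusted p = 0.0101), in a comparison where 17.4% of measured genes were lower at that threshold, and stood at 0.02 (adjusted p = 1) in CD11c-high cells. Pros1, the gene of protein S, had log2 fold changes of -0.33 (adjusted p = 0.139) and 0.25 (adjusted p = 0.429). From CD11c-low to CD11c-high the 2 values were 0.55 and 0.60, and in KO against WT CD11c-low they were 0.19 and 0.25, within a range of -1 to 1 that 8.26% of genes left. Of the microglia markers 5 of 7 were lower in the CD11c-low library (adjusted p under 0.05), and their median log2 fold change was -0.51. Whether Mertk moved apart from these markers was not tested.

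Between KO and WT basal cells the 4 measured genes lay between -0.14 and 0.15 in log2 fold change. Tyro3, under the minimum level, stood at 0.49, and the adjusted p was 1 for each of the 5 genes. In this comparison 34 of 10179 measured genes (0.334%) had an adjusted p under 0.05 in either direction. Tyro3 showed -1.32 from WT CD11c-low to both the WT CD11c-high and the KO CD11c-low library, at mean levels of 6.33 and 8.18 normalized reads, too few to read a direction.

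**Figure D4:**
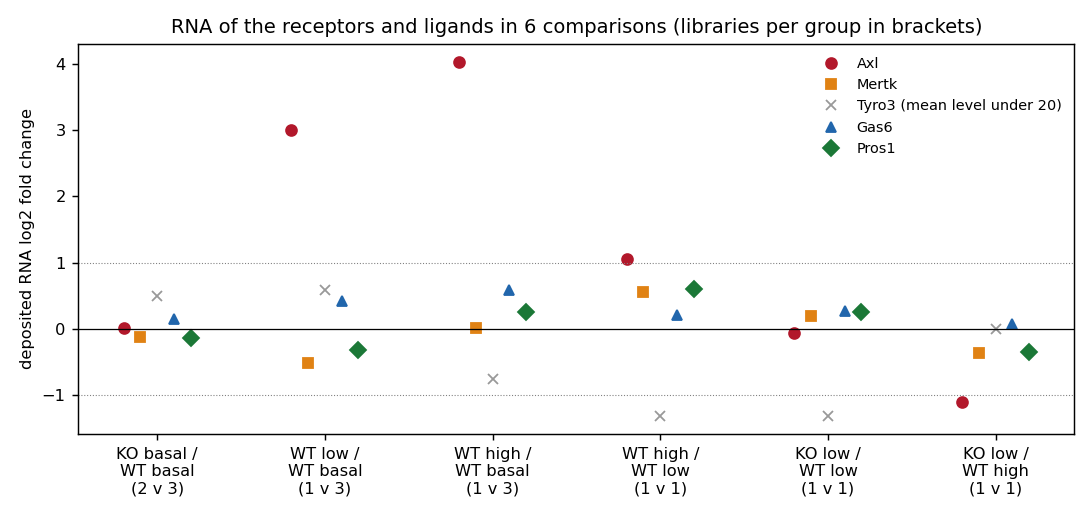
Deposited RNA log2 fold change of the 5 genes (symbols) in 6 comparisons, with the libraries per group in brackets and dotted lines at -1 and 1. Axl stands at 3.01 and 4.04 over WT basal and is the only one of the 4 measured genes past the dotted lines; Tyro3 was under a mean level of 20.

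Per transcript length the order of the 5 RNA levels differed between basal and cuprizone libraries. Over the basal libraries of both genotypes the mean level was 440 normalized reads per kb for Mertk, 262 for Gas6, 256 for Pros1, 42.7 for Axl and 2.04 for Tyro3. Over the 2 WT cuprizone libraries it was 434 for Axl, 328 for Mertk, 302 for Gas6, 222 for Pros1 and 1.43 for Tyro3, and over the CD11c-low libraries of both genotypes 408 for Gas6, 378 for Mertk, 373 for Axl and 257 for Pros1. These means carry no spread between libraries, so neighbours in the order, such as Gas6, Mertk and Axl in the CD11c-low cells, were not told apart. In the basal comparison Axl stood at the 37.2 percentile of measured genes by level per kb, and in the WT cuprizone comparison at the 98.6 percentile.

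**Figure D5:**
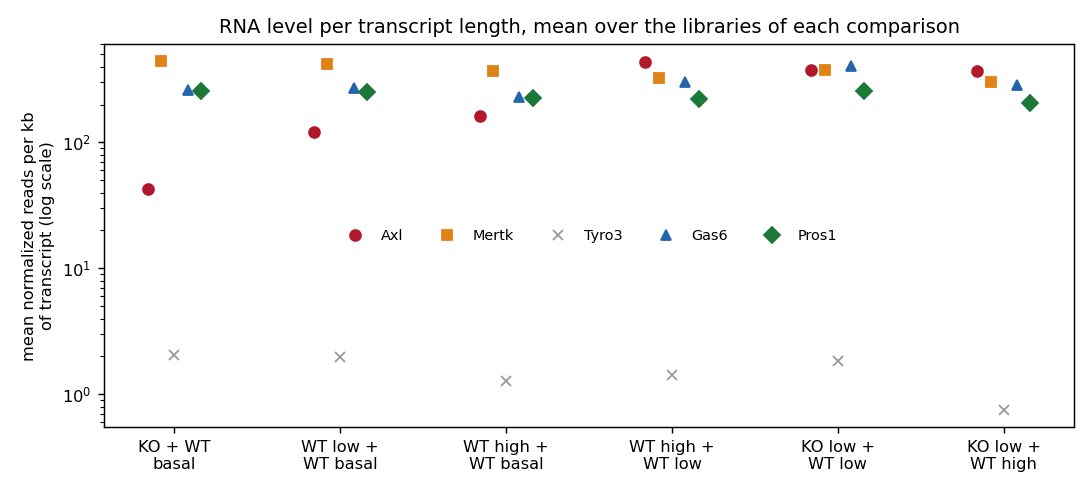
Mean normalized RNA reads per kb of transcript (log scale) over the libraries of each of the 6 comparisons, 1 symbol per gene. Axl lies at 42.7 among the basal libraries and at 434 among the WT cuprizone libraries, while Tyro3 stays at or below 2.04.

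Across the 6 log2 fold changes, the genes nearest to Axl among 7366 with a mean level of at least 50 throughout were Lpl (lipoprotein lipase), at a Euclidean distance of 0.32, Clec7a (dectin-1) at 0.52 and Cxcr4 (a chemokine receptor) at 0.74. Over WT basal, Lpl had log2 fold changes of 3.13 (CD11c-low) and 4.23 (CD11c-high). Nearest to Mertk were Fam91a1, Scoc and Cpsf7 (distances up to 0.12), to Gas6 Tank, Ikbip and Sgcb (up to 0.16) and to Pros1 Laptm4a, Elmod2 and Rab14 (up to 0.13). For Tyro3 they were Mxd1, Rrad and Arid5a (0.54 to 0.62), from its own low levels. The 6 comparisons share libraries, so this is a description of pattern only.

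Other routes of phosphatidylserine-dependent uptake were taken from a list of 17 receptors and bridges. In CD11c-low cells 6 of the 17 had a peak listed as higher than in WT basal and none a lower one, where 10.5% of 24733 genes had a higher peak. The largest ratio in each gene put Cd300a (an inhibitory receptor, log2 ratio 2.53), Cd300lb (2.41) and Cd36 (a scavenger receptor, 2.13) first. The Cd300a peak was intergenic, 17389 bases from the start. RNA in the CD11c-low library differed from WT basal by -0.17 for Cd300a, 4.06 for Cd300lb and 1.36 for Cd36. In CD11c-high cells 7 had a higher peak and 1 a lower one, against 12.7% and 5.13% of genes, led by Cd300a (3.32), Cd36 (3.03) and Stab1 (-2.07). RNA in the CD11c-high library differed by -0.07 for Cd300a, 2.22 for Cd36 and -0.65 for Stab1. Between the KO cells and WT CD11c-high cells, a peak in an intron of Lrp1, an engulfment receptor, was higher in KO (1.03) and an intergenic one assigned to Megf10 lower (-1.49), where 1.66% and 1.34% of genes had such peaks. RNA of Lrp1 differed by 0.13 in that comparison, and Megf10 RNA was under the minimum level. In RNA 3 of 12 measured members were more than 1 higher and 1 more than 1 lower in the CD11c-low library. Of all 10406 measured genes 793 and 517 were. The median was -0.24 for the members against -0.07 over all genes. In the CD11c-high library 3 members were more than 1 higher and 0 more than 1 lower, against 723 and 848 of 9974 genes. The medians there were 0.26 and -0.10.

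Of 11 genes of the engulfment machinery downstream, 5 had a higher and 2 a lower peak in CD11c-low, and 6 and 3 in CD11c-high cells. Over all genes these shares were 10.5% and 1.80%, and 12.7% and 5.13%. Abca1, a lipid efflux transporter, led the higher ones in CD11c-low cells with 2.52, followed by the Rac activator Vav3 (2.31). The Abca1 peak held 6.57 and 3.25 normalized tags in WT basal and 22.75 and 33.5 in CD11c-low libraries, values of few reads. Abca1 RNA in the CD11c-low library differed from WT basal by 0.17. The Vav3 peak was intergenic, at -85910 bases from the start, and Vav3 RNA was under the minimum level. In CD11c-high cells a peak in Dock2, another Rac activator, held 0 and 3.16 normalized tags in WT basal and 21.3 and 26.1 in cuprizone libraries, values of few reads. Lower peaks were as sparse, one assigned to Dock1 with means of 10.9 (WT basal) and 0.42 (CD11c-low), and one in Elmo2 with 34.4 (WT basal) and 1.66 (CD11c-high). Elmo2 had peaks in both directions in each gate. A peak at Vav3 was also higher in KO than in WT CD11c-low cells (2.57, deposited adjusted p = 0.0406), where the KO libraries, at 83.7 and 13.7 normalized tags, stood far apart and the WT libraries were at 8.43 and 8.0. Of all genes 0.736% had a higher peak in that comparison. In RNA 0 of 9 measured members lay past 1 in the CD11c-low library, and the lowest was Elmo1 (-0.78). Of all 10406 measured genes 793 were more than 1 higher and 517 more than 1 lower there. In the CD11c-high library the 9 ranged from -0.76 (Elmo1) to 1.15 (Abca1), with a median of 0.27. Dock2 (0.53), Rac1 (0.52) and Rac2 (0.58) lay between. Abca1 alone was past 1, where 723 of 9974 genes were more than 1 higher.

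The list of 14 genes for TAM signalling, receptor shedding and ligand carboxylation had 4 genes with a higher peak in CD11c-low cells, and 3 with a higher and 1 (Socs1) with a lower peak in the other gate, where over all genes 10.5% had a higher peak in the former and 12.7% a higher and 5.13% a lower one in the latter. Among the peaks with the largest ratios were an intergenic one assigned to Twist2, a transcription repressor, and an intronic one of a neighbouring transcript assigned to Lgals3, the gene of galectin-3, a Mertk ligand (3.36 and 4.14). The former lay 79445 (CD11c-low table) and 79499 (CD11c-high table) bases from the Twist2 start. The Twist2 peak held 0 and 2.17 normalized tags in WT basal and 22.0 and 25.1 in CD11c-low libraries, and 0 and 2.11 against 89.8 and 67.7 in the CD11c-high table, so its basal values stand on almost no reads. The Twist2 and Lgals3 peaks were lower in KO CD11c-low than in WT CD11c-high cells (-2.53 and -1.50). An intergenic peak assigned to Tulp1, the gene of a tubby-like TAM ligand, at -27879 bases from its start, was higher (1.41). Socs3 also had a peak listed as higher in KO. Of all genes 1.66% had a higher and 1.34% a lower peak in this comparison. RNA of Twist2 and Tulp1 was listed at 0 in all 6 comparisons. In CD11c-high against CD11c-low cells peaks assigned to Twist2 (1.69) and Lgals3 (1.01) were higher. In that comparison a peak near Socs3, an inhibitor of cytokine signalling that TAM receptors induce, was lower (-1.33, deposited adjusted p = 0.0405). Of all genes 0.825% had a higher and 0.695% a lower peak there. In RNA Lgals3, Vkorc1 and Ifnar1 were among the genes higher in both gates over WT basal, Adam17 also in CD11c-high cells, and Ggcx (the carboxylase, CD11c-low) and Socs1 (CD11c-high) were lower.

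Of 7 nuclear receptors of the kind that induces TAM genes, 4 had a higher peak in each gate over WT basal and 1 (Nr3c1) a lower one, where 10.5% and 12.7% of all genes had a higher and 1.80% and 5.13% a lower peak. Ppard led these in both (1.68 and 1.80), followed by Rxra (1.23) in one gate, CD11c-low, and Pparg (1.58) in the other. A peak assigned to Nr3c1, the glucocorticoid receptor, was lower (-3.13 and -2.47), but it lay 115962 bases from the Nr3c1 start. Against CD11c-low cells it held 16.4 and 11.9 normalized tags in WT basal and 1.57 and 1.67 in cuprizone libraries, values of few reads. In CD11c-low cells Nr3c1 also had a higher peak. A peak at Rxra was higher in KO CD11c-low than in WT CD11c-high cells (log2 ratio 1.66), where 1.66% of all genes had a higher peak. In RNA 0 of 5 measured members lay past 1 in either gate. Of all measured genes 793 of 10406 (CD11c-low) and 723 of 9974 (CD11c-high) were more than 1 higher, and 517 and 848 more than 1 lower. Nr3c1 had the lowest value of the 5 in each, -0.84 in the CD11c-low and -0.50 in the CD11c-high library.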

How the data were processed

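H3K27ac tags per peak were a normalized signal that the authors scaled within each comparison. Reads were mapped with Bowtie2, duplicates removed with SAMtools 0.1.19 and peaks called with HOMER, 2 libraries per group; the tool behind the peak p values is not given in the sources used here. The methods name hg19, but the coordinates are mouse (mm10), since 98.4% of 14002 listed peaks lay within 10 bases of their stated distance to the start in GRCm38.p6. The lists hold peaks with an adjusted p under 0.05 whose log2 fold change exceeds 1 in size. Raw and adjusted p-value columns were deposited by the authors, and the number of peaks tested was derived from them. The deposited log2 fold change of the peaks was not used. RNA mean levels and log2 fold changes (log2) are deposited columns of the authors, who used HOMER and DESeq2, and 19 RNA columns of single libraries were not used.

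Log2 ratios of group means were computed here, each with an SE from the spread of the log2 values, n = 2 per group. An exact permutation test of 2 against 2 cannot go below 0.333, and nothing says whether same-numbered libraries share animals. All values were whole multiples of the value of 1 read within 0.03 normalized tags (100%), which gave recovered reads with counting error only. Alternatives ran limma 3.58.1, edgeR 4.0.16 and DESeq2 1.42.0 over the listed peaks in R 4.3.3. The tests were tried on simulated data first. Python 3.11.15 was used. The text names every member, up to 3 genes per list by the largest absolute log2 ratio and the 3 genes nearest to each member in RNA. RNA genes per list were named after their values were seen. One gene of a list and one sequence are not reported here. Members and lists were chosen with earlier results of these data known.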

Additional observations from a re-analysis of the deposited data

How the results depend on the processing

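Only peaks past the limits of the lists were at hand, so limma without a block, with a pseudocount of 5 and with the replicate block, edgeR and DESeq2 could be fitted only over peaks already called. They pass nearly all of these, so the member counts of 2, 1, 0, 0 and 2 that each gave were fixed by the lists and say nothing about stability. The replicate numbers mark no shared animal in the sources, and same-numbered libraries had correlations of -0.0527, -0.0341, 0.136, -0.082 and -0.0531 in their deviations, so with 2 pairs each the numbers were not taken as pairs, which leaves shared animals unknown (replicate block counts 2, 1, 0, 0 and 2). The 2 Axl peaks in CD11c-low cells fell to 1 with an absolute log2 ratio above 1.5, with TMM factors over the listed peaks, and within 10 kb of the start. The 2 Gas6 peaks fell to 1 at an adjusted p of 0.01 and to 0 with a log2 ratio above 1.5 or with TMM. TMM assumes that most peaks do not change, whereas every listed peak had been called as changed, and it moved the log2 ratios of all peaks by about -1.54 in CD11c-low, -1.48 in CD11c-high and -0.43 between KO and WT CD11c-high cells. It put the broad Axl peaks at 1.41 and 1.27, reversed the Axl intron 6 peak, whose ratio is smaller than that shift, to -0.40 and set the larger and smaller Gas6 peaks at 0.68 and 0.94. Leaving out 1 library gave 1 to 2 Axl peaks in CD11c-low cells (1 without WT basal replicate 2), 1 to 1 in CD11c-high cells, and 0 to 2 Gas6 peaks (0 without KO CPZ CD11c-low replicate 2). Without 1 library the broad Axl peaks had log2 ratios of 2.59 to 3.08. In RNA 4 member values lay past 1, also after centring on the median gene, and 6 without the minimum level, both chosen after seeing the data. Reads per library limit the Gas6 intron 2 peak, at 31 to 105 reads.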
